A study of Mus musculus with 37 samples.

Results

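Interferon-responding fibroblasts of the injured mouse heart were 447 of the 5905 fibroblast barcodes, and of the 12807 barcodes in all, in the deposited single-cell tables of nonmyocytes, 7 days after myocardial infarction. A barcode was taken as a fibroblast when Col1a1, Col1a2, Col3a1 and Dcn, which encode fibrillar collagens and the proteoglycan decorin, made up at least 0.5% of its counts and the complement genes C1qa, C1qb and C1qc, which macrophages express, made up less than 0.3%. Among these, the members were selected on a summed count of at least 5 over Ifit1, Ifit3, Isg15, Rsad2 and Iigp1. Because the members were chosen by those counts, every difference between members and the other fibroblasts is given as a description, with no test.

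The study asked what ENPP1, an ectonucleotidase that hydrolyzes extracellular ATP, does in cardiac repair. ENPP1CKO mice carried the Col1a2CreERT driver and ENPP1 fl/fl alleles and received tamoxifen from before injury until 7 days after it, so that the deletion was directed to cells in which the Col1a2 driver is active. The control was labelled wild type. Both were C57BL/6 mice with a myocardial infarction of 7 days, and there was 1 library per genotype, with the number, age and sex of the hearts behind each library not given in the sources used here. The comparison between genotypes therefore sets 1 library against 1 library, without a replicate, and animal, dissociation and library cannot be told apart from genotype.

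The ENPP1CKO library held 239 members among 3852 fibroblasts and the control library held 208 among 2053. The median member had 5298 counts in ENPP1CKO and 6153 in the control library, against 3977 and 5128 in the other fibroblasts. Members together held 1399140 and 1442706 counts. The same 68 barcode sequences occurred in both libraries, and 1 of them was a member in both. Without these barcodes there were 234 and 205 members, and the summed interferon-list ratios below moved by less than their counting intervals. Levels are given as CPM, the counts of a gene per 1000000 summed counts of a group, and 95% intervals, in brackets, are exact and cover counting error only. They do not cover differences between animals or the uneven spread of a gene over barcodes.

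Interferons are secreted antiviral and immune signals. Type I interferons bind the receptor formed by Ifnar1 and Ifnar2, whose kinases Jak1 and Tyk2 activate transcription factors. Stat2 and Irf9 are parts of the ISGF3 complex, which binds the interferon-stimulated response element of antiviral genes. Interferon gamma signals through the receptor chains Ifngr1 and Ifngr2 and the kinases Jak1 and Jak2. DNA in the cytosol is read by Cgas, which makes cGAMP, the ligand of STING, and ENPP1 is known to hydrolyze extracellular cGAMP as well as ATP.

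The promoters of 4 of the genes that define the members are shown, and the core of this response element, GAAANNGAAA, occurred in each. The promoter of Iigp1 is not reported here. The sequences are the 250 bases before the start of the gene in RefSeq, build GRCm38.p6, read 5′ to 3′ on the strand of the gene: Ifit1 at chr19:34640639-34640888 (plus strand), Ifit3 at chr19:34583279-34583528 (plus strand), Isg15 at chr4:156200819-156201068 (minus strand) and Rsad2 at chr12:26456453-26456702 (minus strand). Capitals mark matches of GAAANNGAAA or of its reverse complement TTTCNNTTTC.
Ifit1: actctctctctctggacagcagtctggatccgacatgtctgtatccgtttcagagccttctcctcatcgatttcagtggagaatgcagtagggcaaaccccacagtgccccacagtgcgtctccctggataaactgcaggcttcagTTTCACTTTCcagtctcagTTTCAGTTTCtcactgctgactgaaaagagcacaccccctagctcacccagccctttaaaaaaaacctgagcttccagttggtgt
Ifit3: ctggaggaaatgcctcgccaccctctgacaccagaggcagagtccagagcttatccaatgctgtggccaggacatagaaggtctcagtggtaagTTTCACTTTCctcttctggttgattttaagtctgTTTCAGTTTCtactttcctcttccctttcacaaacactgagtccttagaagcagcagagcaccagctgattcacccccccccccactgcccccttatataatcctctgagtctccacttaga
Isg15: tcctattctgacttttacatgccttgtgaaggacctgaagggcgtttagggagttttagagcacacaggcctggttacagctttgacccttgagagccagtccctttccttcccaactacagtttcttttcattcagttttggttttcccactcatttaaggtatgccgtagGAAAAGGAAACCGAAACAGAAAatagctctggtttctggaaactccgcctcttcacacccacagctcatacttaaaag
Rsad2: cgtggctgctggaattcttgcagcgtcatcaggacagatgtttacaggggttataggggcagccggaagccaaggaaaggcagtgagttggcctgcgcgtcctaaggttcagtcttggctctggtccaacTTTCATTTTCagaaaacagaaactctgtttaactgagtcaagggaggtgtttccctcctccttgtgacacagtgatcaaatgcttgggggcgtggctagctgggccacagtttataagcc

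Ifit1 and Ifit3 each held 2 matches, all on the reverse strand, at 104 to 95 and 85 to 76 bases before the start of Ifit1 and at 156 to 147 and 122 to 113 bases before that of Ifit3. Isg15 held 3 matches that overlap one another, between 78 and 57 bases before its start. Rsad2 held 1, at 120 to 111 bases. Of all 27025 genes with a RefSeq promoter entry, 936 (3.46%) held a match in a window of this length, and of the 9005 entries among genes measured in both libraries 290 (3.22%) did. A match is a run of letters, not a measured binding site.

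Enpp1, the targeted gene, was low in the ENPP1CKO members. Its level was 28.6 CPM [20.4, 38.9] in the ENPP1CKO members and 90.8 CPM [75.9, 108] in the control members, a log2 ratio of -1.67 [-2.22, -1.15]. A count of Enpp1 was found in 31 of 239 members (13.0%) of the ENPP1CKO library and in 81 of 208 (38.9%) of the control library. The other fibroblasts had 28.8 CPM and 124 CPM, a log2 ratio of -2.11, so the gene was low in the ENPP1CKO library in members and in other fibroblasts alike. Among barcodes without any C1q count the ratio in members was -0.76.

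Members were a minority of fibroblasts in both libraries. They made up 6.20% [5.46, 7.01] of fibroblasts in ENPP1CKO and 10.1% [8.86, 11.5] in the control library, and these exact Clopper-Pearson intervals do not overlap. A fixed count is reached more easily in a deep barcode, and the control fibroblasts were deeper. When every barcode was thinned to 3000 counts, leaving out 1042 and 370 shallower fibroblasts, the rule was met by 135 of 2808 fibroblasts (4.81% [4.05, 5.67]) and 106 of 1683 (6.30% [5.18, 7.57]), and the intervals overlapped. They also overlapped at 1500 counts (2.24% [1.78, 2.78] and 2.80% [2.11, 3.64]) and at 6000 counts (7.96% [6.15, 10.1] and 9.69% [7.73, 11.9]), with the control share the higher at each depth. These intervals cover counting error over barcodes, and the difference between the libraries was not tested.

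The same 5 genes also reached 5 counts in other cells of the same hearts. Among barcodes with C1q genes at 0.3% or more and the 4 matrix genes under 0.5%, called C1q-high, 63 of 1978 (3.19%) in the ENPP1CKO library and 90 of 1998 (4.50%) in the control library did so at median depths of 3313 and 3483 counts. After thinning to 3000 counts the shares were 2.5% [1.68, 3.57] and 4.16% [3.12, 5.42]. Endothelial-gated barcodes were under both limits and had endothelial genes at 0.3% or more. Of these, 67 of 873 (7.67%) and 18 of 190 (9.47%) did so, and after thinning 15 of 122 (12.3% [7.05, 19.5]) and 11 of 78 (14.1% [7.26, 23.8]). At 3000 counts the share was lowest in the C1q-high and highest in the endothelial-gated barcodes of each library. The fibroblast interval was apart from both others in the ENPP1CKO library and overlapped both in the control library. At 6000 counts the ENPP1CKO intervals overlapped too, at [6.15, 10.1] in fibroblasts, [2.48, 10.9] in C1q-high and [4.05, 45.6] in endothelial-gated barcodes.

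**Figure D1:**
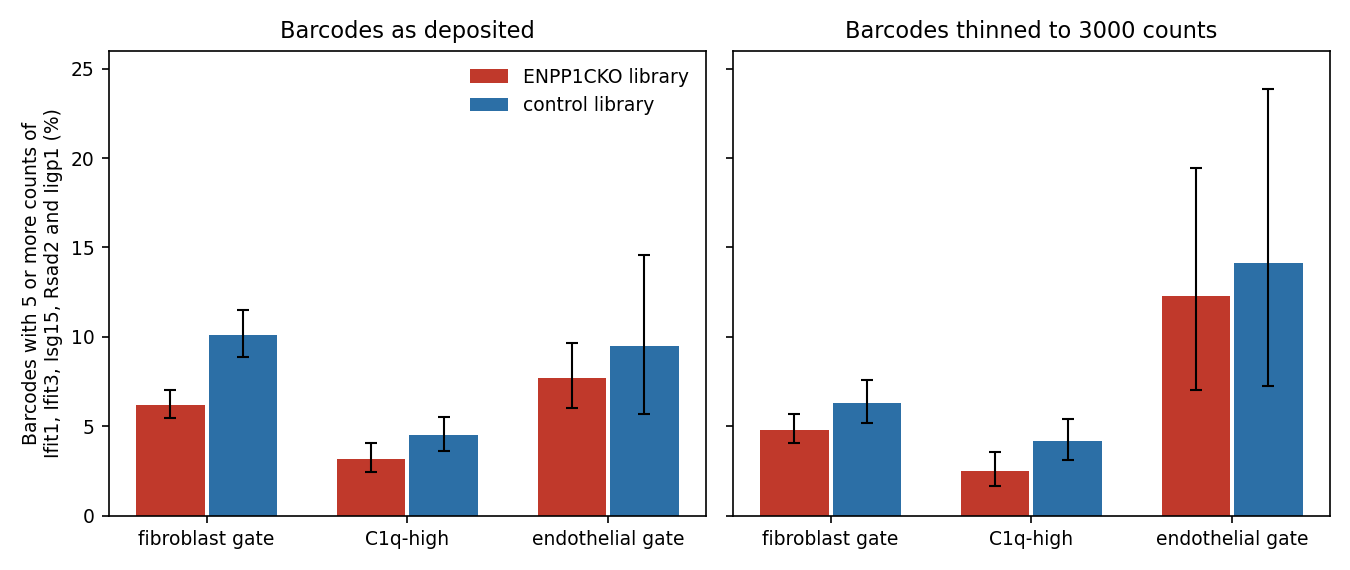
Share of barcodes, in percent, with at least 5 summed counts of the 5 selecting genes in fibroblasts, C1q-high and endothelial-gated barcodes of the ENPP1CKO and control libraries, as deposited and after thinning to 3000 counts. Bars are exact 95% binomial intervals, and the fibroblast shares of 6.20% and 10.1% come down to 4.81% and 6.30% after thinning.

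The 5 selecting genes were not evenly spread over the members. Isg15, a ubiquitin-like protein that is joined to other proteins during the response, had a count in 96.7% of ENPP1CKO members and 93.8% of control members, at 1171 and 1136 CPM against 50.5 and 59.9 CPM in the other fibroblasts. Ifit1, which binds viral RNA lacking self marks on its cap, had a count in 60.7% and 65.4% of members, at 414 CPM in both libraries against 9.42 and 14.1 CPM. Ifit3, its partner, had a count in 72.8% and 63.9%, at 675 and 557 CPM against 14.9 and 11.9 CPM. Reads of Ifit3 and of its near copy Ifit3b may be split between them by the counting. Iigp1, an immunity-related GTPase that acts on the vacuoles of intracellular pathogens, had a count in 66.9% and 63.9%, at 486 and 314 CPM against 18.3 and 20.7 CPM. Rsad2, the antiviral enzyme viperin, had a count in only 23.4% and 21.6% of members, at 179 and 118 CPM against 2.55 and 2.80 CPM. Isg15 was thus the gene most members shared and Rsad2 the one fewest shared.

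Most members had several of these genes. At least 3 of the 5 had a count in 173 of 239 ENPP1CKO members (72.4%) and 133 of 208 control members (63.9%), and all 5 had one in 38 and 32. Members that passed on a single gene numbered 19 and 21. Their interferon genes outside the rule were lower than in the members with all 5, at 8288 against 22796 CPM in the ENPP1CKO library and 8618 against 20927 CPM in the control library. The 35 and 36 members without any count of Ifit1, Ifit3 or Rsad2 stood at 9063 and 9391 CPM. The median member had 10 summed counts of the 5 genes in ENPP1CKO and 9.5 in the control library, with a highest count of 158 and 185.

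The response had no visible step at the threshold. The interferon list used here, 82 genes typed from general knowledge of which 80 were in the tables, holds none of the 5 selecting genes. Its summed level in the ENPP1CKO fibroblasts was 5331 CPM in the 2660 barcodes with no count of the selecting genes, 6871 with 1 to 2, 8938 with 3 to 4, 10906 with 5 to 9, 14449 with 10 to 19 and 21368 with 20 or more. In the control library the same bins gave 5473, 6938, 8430, 9498, 12063 and 18504 CPM. Every bin was above the one before it in both libraries. Just outside the threshold, at 4 counts, 56 ENPP1CKO and 44 control barcodes stood at 9822 and 8829 CPM, and just inside it, at 5 counts, 52 and 25 barcodes stood at 10744 and 9262 CPM. The interferon-induced GTPases climbed more steeply, from 81.3 to 1753 CPM and from 83.2 to 1478 CPM between the lowest and the highest of these bins.

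**Figure D2:**
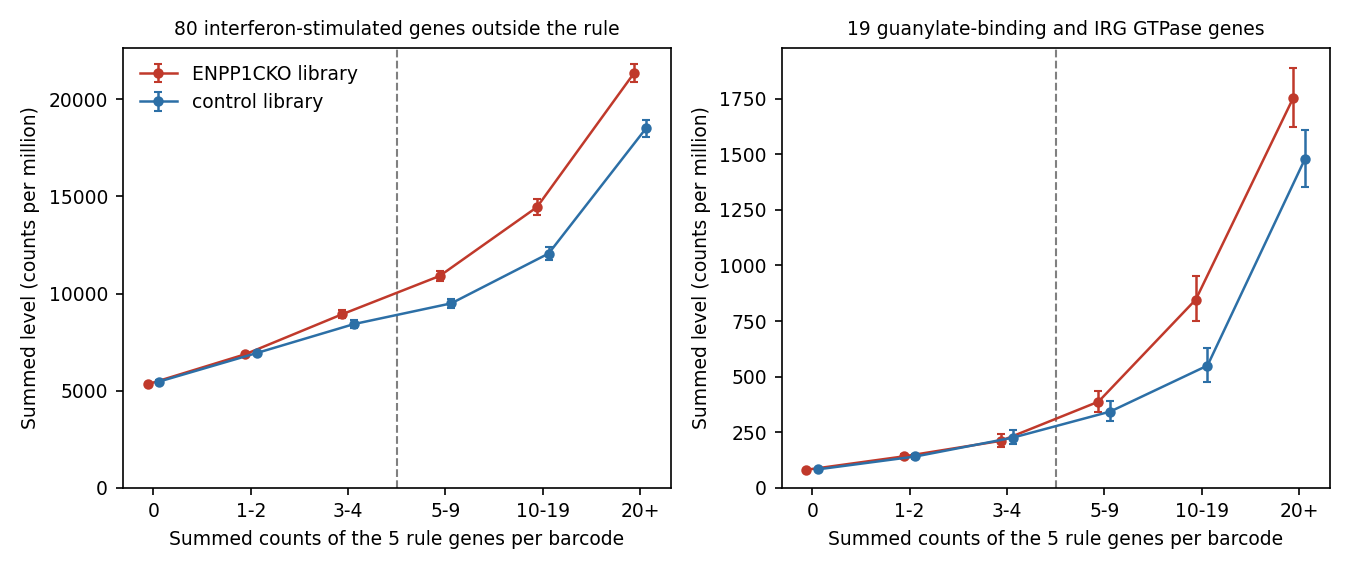
Summed level, in CPM, of the 80 interferon genes outside the rule and of the interferon-induced GTPases in fibroblasts binned by their summed count of the 5 selecting genes, in the ENPP1CKO and control libraries. Bars are exact 95% Poisson intervals, and the interferon list climbs from 5331 and 5473 CPM in barcodes with no count to 21368 and 18504 CPM at 20 counts or more.

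The members held 73.1% and 76.4% of all fibroblast counts of the 5 genes, shares that the selection on these genes makes high. They held 18.1% and 21.8% of the counts of the interferon list, in 8.17% and 12.2% of all fibroblast counts. The greater part of the fibroblasts' interferon-gene counts thus lay outside the members, at a lower level per barcode. The median member had 73 and 72 counts of the list, and the median other fibroblast 22 and 29.

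Over all genes with at least 20 counts in a library's fibroblasts, 244 of 12164 (2.01%) were at least 2-fold higher in the ENPP1CKO members than in the other fibroblasts, with an interval that excluded equality, and 143 (1.18%) were at least 2-fold lower. In the control library 197 of 11691 (1.69%) were higher and 168 (1.44%) lower. The median log2 ratio over all these genes was -0.03 and -0.04. Of the interferon list, 75 genes had 20 counts in each library; 70 were at least 2-fold higher in the ENPP1CKO members and 59 in the control members, and none was 2-fold lower. The median log2 ratio of the list was 1.94 and 1.77, and its summed level was 14706 against 5920 CPM (log2 1.31 [1.29, 1.33]) and 12385 against 6196 CPM (log2 1.00 [0.98, 1.02]). Since the members were chosen by genes of the same programme, these counts describe the members and give no independent support. The limit of 20 counts was summed over members and other fibroblasts, so a gene high in members could reach it through them. The genes below are ordered by their place in the pathway. Their lists overlap the interferon list, so some calls below repeat calls counted above. Irf7, Irf9, Stat2, Usp18, Trim30a, Adar, Cmpk2, Cxcl10, Tap1, Psmb8 and Psmb9 stand in the interferon list too.

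The ligands were almost absent. Of 20 interferon genes, none had a count in the ENPP1CKO members, which allows each up to 2.14 CPM, and in the control members 1 count of Ifnz was the only one, with 2.08 CPM as the limit for the others. The other fibroblasts of both libraries held 9 and 7 counts in all. Interferon transcripts were thus at or under the limit of detection in members.

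The receptors and their kinases were close to level. None of the 8 genes tested in each library was 2-fold higher or lower, and their summed level was 429 against 454 CPM (log2 -0.08 [-0.21, 0.04]) in the ENPP1CKO library and 432 against 457 CPM (log2 -0.08 [-0.20, 0.04]) in the control library. Ifnar1 had log2 ratios of -0.27 and 0.27, Ifnar2 of 0.15 and 0.03, and Ifngr1 of -0.25 and -0.32. The kinase Jak1 stood at 131 against 135 CPM and at 107 against 119 CPM. Members thus differed little from other fibroblasts in the transcripts that receive the signal.

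The transcription factors were mixed. Irf7, which amplifies type I interferon responses, was at 241 against 43.8 CPM and 166 against 37.1 CPM. Stat2 (log2 1.62 and 1.56) and Irf9 (1.47 and 1.07), both parts of ISGF3, were also at least 2-fold higher in both libraries. Irf1, Irf3 and Stat3 were not: Irf1, an early target of interferon gamma, had log2 ratios of 0.17 and 0.39, Irf3, which is activated by phosphorylation, -0.06 and -0.55, and Stat3 -0.04 and 0.14.

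Among 18 sensors tested, 8 were at least 2-fold higher in the ENPP1CKO members and 7 in the control members, and none was 2-fold lower. Over all genes 2.01% and 1.69% were higher, and 1.18% and 1.44% lower. Ifih1, Ddx58, Dhx58, Zbp1 and Ifi204 are also genes of the interferon list and were counted there. Of the RNA sensors, Ifih1 (MDA5) was at 91.5 against 13.9 CPM and 67.9 against 16.5 CPM, Ddx58 (RIG-I) at 74.3 against 17.9 CPM and 68.6 against 19.8 CPM, and Dhx58 (LGP2) had log2 ratios of 2.99 and 2.58. Tlr3, the endosomal receptor for double-stranded RNA, was at 35.7 against 11.2 CPM and 20.8 against 9.36 CPM. Zbp1, which binds left-handed nucleic acid, was at 75 against 13.2 CPM and 58.9 against 17.8 CPM. Ifi204, which binds DNA, was at 90.1 against 27.6 CPM and 66.5 against 26.3 CPM. Of the DNA-sensing axis of Cgas and STING, Cgas had 1.43 CPM in the ENPP1CKO members and 2.77 CPM in the control members, which rests on 2 and 4 counts, and Tmem173, the gene of STING, was at 14.3 against 18.1 CPM (log2 -0.34) and 18.7 against 21.1 CPM (log2 -0.18). Mavs, the adaptor of the RNA sensors, had log2 ratios of -1.38 and -0.30 at 2.86 and 4.16 CPM in members.

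Ratios of the antiviral effectors spanned a wide range. Mx1, a gene of the dynamin-like GTPase family, was at 20.0 against 0.318 CPM (log2 5.98) and 17.3 against 0.289 CPM (log2 5.90). It had a count in only 8.79% and 8.65% of members. Ifit3b, the near copy of Ifit3, was at 129 against 2.74 CPM and 105 against 2.70 CPM. Oasl2, of the oligoadenylate synthetase family, had log2 ratios of 2.98 and 2.21, and Oas1a, whose reads may be shared with Oas1g, 3.08 and 2.19. Bst2, the tether that holds budding virions, was at 1003 against 312 CPM and at 674 against 345 CPM. Cmpk2, a mitochondrial nucleotide kinase, was at 45.7 against 3.12 CPM and 38.8 against 2.80 CPM. Rtp4, Ifi44 and Slfn8 were also among the 15 genes with the widest shared ratios outside the rule and with at least 50 member counts, at log2 3.01 and 2.5, 3.86 and 3.15, and 2.70 and 2.62. Not every gene of the list took part: Ifi27 (log2 -0.19 and -0.14) and Ifitm2 (-0.06 and 0.09) stayed close to equality. In the ENPP1CKO library 1 gene of the list had an interval below equality. Ifitm3, which blocks viral entry, had 1.13 and 0.75.

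All 13 interferon-induced GTPases with at least 20 counts, of 19 in the tables, were at least 2-fold higher in members of both libraries. Over all genes 2.01% and 1.69% were. The limit counts the members too, so a GTPase gene high in members could pass through them, and the 13 are a description only. Gbp2, Gbp3 and Gbp7 are also in the interferon list. These guanylate-binding proteins and immunity-related GTPases attack vacuoles that hold pathogens, and they respond to interferon gamma and to type I interferons. Their summed level was 883 against 104 CPM (log2 3.09 [2.98, 3.20]) and 676 against 114 CPM (log2 2.57 [2.44, 2.69]). Igtp was at 98.6 against 6.81 CPM and 101 against 10.8 CPM, Gbp2 at 180 against 27.0 CPM and 116 against 26.3 CPM, and Ifi47 at 65.0 against 4.26 CPM and 37.4 against 8.10 CPM. A match of GAAANNGAAA lay in the promoter window of 10 of the 11 GTPase genes with a RefSeq entry (90.9%), and of 26 of 65 genes of the interferon list (40.0%), beside 3.22% of measured genes.

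**Figure D3:**
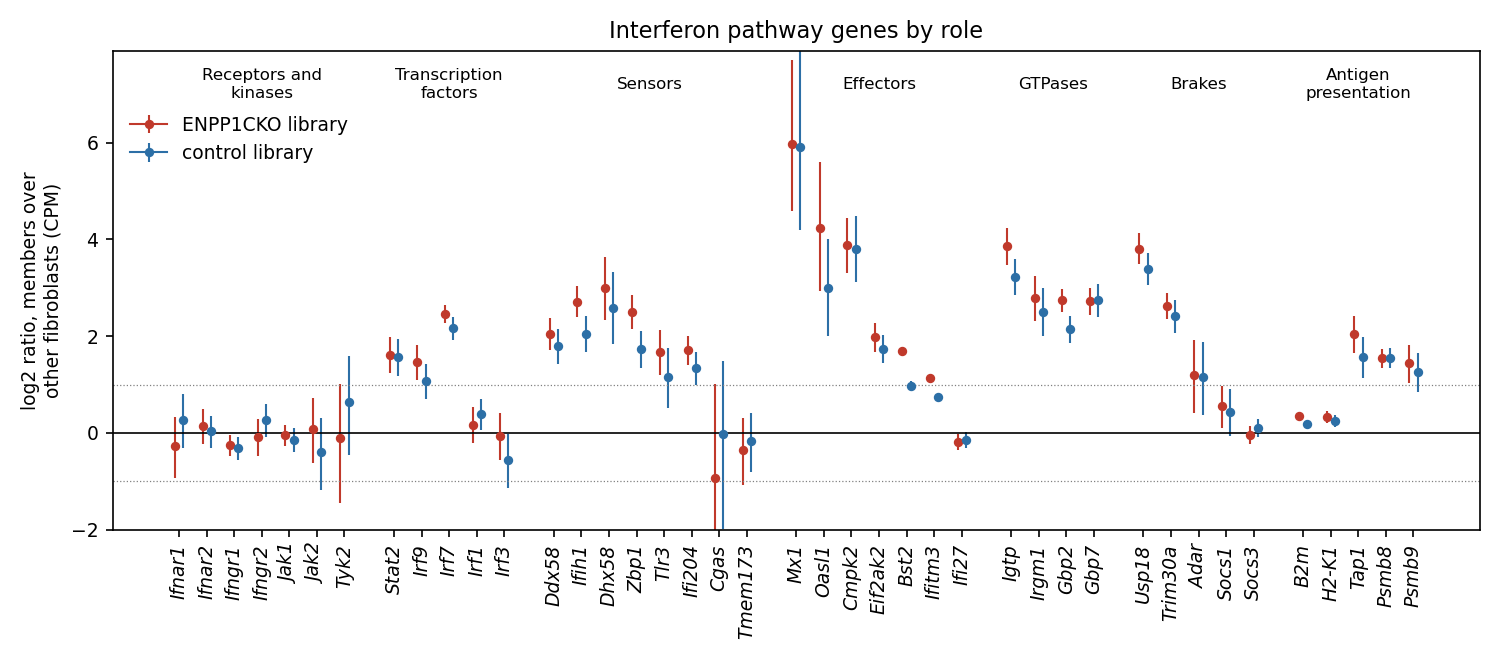
Log2 ratio of members over other fibroblasts for named genes in order of their role, ENPP1CKO and control libraries, with exact 95% intervals. Dotted lines mark 2-fold, and the axis ends before the full intervals of Mx1 and Cgas. Receptors and kinases lie around 0, whereas Stat2, Irf9, Irf7, the RNA sensors and the GTPases lie above 1 in both libraries.

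Genes that restrain the response were mixed. Usp18, which removes Isg15 from proteins and blocks Ifnar2, was at 130 against 9.29 CPM (log2 3.81) and 130 against 12.4 CPM (log2 3.38). Trim30a was at 128 against 20.7 CPM and 86.6 against 16.3 CPM, and Adar, which edits double-stranded RNA, had log2 ratios of 1.2 and 1.15. The suppressors of cytokine signalling were not 2-fold higher: Socs1 had 0.55 and 0.43 and Socs3 -0.04 and 0.10. In all, 4 of 15 genes tested were 2-fold higher in the ENPP1CKO members and 3 in the control members. Over all genes 2.01% and 1.69% were. Among 24 and 23 nucleotide-metabolism genes tested, which bear on the study's question, 3 and 2 were, with Cmpk2 and Adar in both libraries and Samhd1, which degrades deoxynucleotides, in the ENPP1CKO library. The pyrimidine-synthesis genes Umps (log2 -0.25 and 0.16), Dhodh (0.02 and -0.69) and Cad (-0.19 and 0.17) were not, at few counts.

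Most members, 88.3% and 90.9%, had at least 1 count of some chemokine, as did 77.7% and 85.4% of the other fibroblasts, but single chemokines were held by fewer. Cxcl10, which attracts CXCR3-bearing lymphocytes, was at 250 against 7.32 CPM (log2 5.10) and 389 against 29.7 CPM (log2 3.71), with a count in 12.1% and 16.8% of members. Cxcl9 was at 35.7 against 3.82 CPM and 83.9 against 3.18 CPM, but 1 barcode in each library held 74.0% and 82.6% of its member counts, and without those barcodes the log2 ratios came down from 3.23 to 1.30 and from 4.72 to 2.20. The choice to leave out such barcodes was made after seeing the data. Ccl2 and Ccl7, monocyte attractants, were 2-fold higher in the ENPP1CKO members alone, at 194 against 37.4 CPM and 195 against 46.6 CPM, beside 272 against 244 CPM and 147 against 123 CPM in the control library. The difference between the libraries was not tested. Without the top barcode the ENPP1CKO log2 ratios were 1.67 and 1.60. For Ccl5 the log2 ratio went from 1.62 to 1.01 in the ENPP1CKO library and from 1.42 to -0.96 in the control library when the top barcode was left out, and for Cxcl2 in the ENPP1CKO library from 1.53 to -0.28. Cxcl5, a neutrophil attractant, was 2-fold lower in members of both libraries, at 10.0 against 23.1 CPM and 18.0 against 67.6 CPM.

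Genes of antigen presentation by MHC class I were mixed. The immunoproteasome subunit Psmb8 was at 187 against 64.2 CPM and 204 against 69.5 CPM, and the peptide transporter Tap1 at 57.9 against 14 CPM and 46.4 against 15.6 CPM. Psmb9 and Psmb10 were also 2-fold higher in both libraries. The heavy chain H2-K1 had log2 ratios of 0.33 and 0.25 and the light chain B2m 0.34 and 0.18, at 3552 against 2801 CPM and 2849 against 2522 CPM. Other processing genes were lower in ratio, with 0.67 and 0.50 for Psme1, 0.34 and 0.20 for Tapbp, and -0.01 and 0.05 for Canx. Of 22 class I genes tested, 6 were 2-fold higher in the ENPP1CKO members and 5 in the control members. Over all genes 2.01% and 1.69% were. MHC class II went in opposite directions, a difference that was not tested. Its summed level was 149 against 202 CPM (log2 -0.44 [-0.65, -0.24]) in the ENPP1CKO library and 726 against 335 CPM (log2 1.12 [1.02, 1.22]) in the control library. There 1 barcode held 43.2% of the member counts, and without it the log2 ratio was 0.32. Ciita, the master regulator of class II, had no count in members of either library. Over the 20 genes typed as targets of interferon gamma, a list that shares class II genes, the summed level was 816 against 660 CPM (log2 0.31) and 1386 against 837 CPM (log2 0.73), with 2 of 13 and 4 of 14 tested genes 2-fold higher, and without the top barcode the ratios were 0.24 and 0.38.

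**Figure D4:**
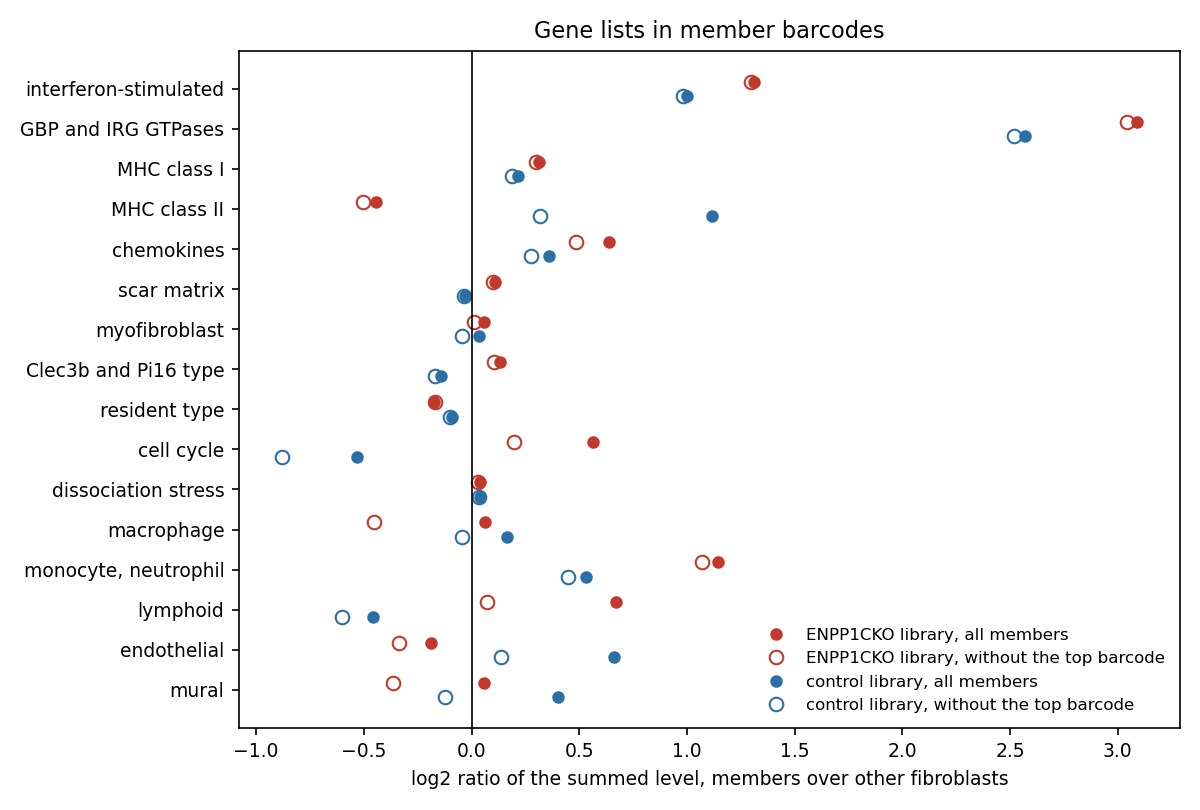
Log2 ratio of the summed level of each gene list, members over other fibroblasts, in both libraries, with all members and without the member barcode that held the most counts of that list. The interferon list moves from 1.31 to 1.30 and from 1.00 to 0.98, whereas MHC class II in the control library moves from 1.12 to 0.32.

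Of the 11482 genes measured in both libraries, 99 (0.862%) were at least 2-fold higher in members of both and 8 (0.0697%) at least 2-fold lower in both. The 5 selecting genes, 59 genes of the interferon list and the 13 GTPases were among the 99, and 78 of the 99 stood in the rule or in an interferon-related list. Without the top barcode of each library, 91 of the 99 were still 2-fold higher in both. Of the 94 outside the rule, 75 had a RefSeq promoter entry and 30 of these (40.0% [28.9, 52.0]) held GAAANNGAAA.

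Another 20 of the 99 were in none of the lists. Samd9l, which restricts protein synthesis during infection, was at 115 against 31.9 CPM in the ENPP1CKO library, and its log2 ratios were 1.85 and 1.72. Il18bp, the decoy that binds interleukin-18, had log2 ratios of 2.66 and 1.77, Zc3hav1, which binds viral RNA, 1.14 and 1.58, and Pml and Daxx, of nuclear bodies, 1.46 and 1.43, and 1.31 and 1.43. Parp11 had 1.86 and 1.56, Mitd1 1.28 and 1.26 and Aftph 1.37 and 1.78. Apol9a (2.17 and 1.57) and Apol9b (2.25 and 1.33) are near copies of each other, so their reads may be split. Cytip and Dkk2 were carried by single barcodes, which held 87.5% and 75% of their ENPP1CKO member counts, and 1 barcode held 82.8% of the control member counts of Star, without which its log2 ratio there went from 2.42 to -0.09. The 20 were taken because they passed in both libraries, after their values were seen.

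The 8 lower genes were at low levels. Krt19, a keratin of epithelial and mesothelial cells, had no count in members of either library, which allows up to 2.14 and 2.08 CPM, beside 5.28 and 8.30 CPM in the other fibroblasts. Upk3b, which mesothelial cells express, was at 0.715 against 6.11 CPM and 1.39 against 6.17 CPM, resting on 1 and 2 counts in members. Gdf15, a stress-induced cytokine, had log2 ratios of -3.03 and -1.51 and Ccbe1 -1.81 and -2.58. Aqp5, Celf4, Ralgapb and Cxcl5 made up the rest. Among genes with at least 50 counts in members, none of the 15 with the lowest shared ratio reached 2-fold, and Clec3b, which marks a resting adventitial-type fibroblast, led them at 134 against 265 CPM (log2 -0.99) and 92.9 against 146 CPM (log2 -0.65).

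Further fibroblast genes outside the gate stood in members near the level of their neighbours. All 20 of these markers had counts, every member held at least 5 counts of them, and their summed log2 ratio was 0.07 [0.06, 0.08] and -0.01 [-0.02, 0.00]. The 4 matrix genes of the gate, which the rule used, made up a median of 3.07% and 2.74% of member counts, and 2 and 6 members were under 1%.

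For some lists of other cell types, 1 member barcode held much of the member counts. The macrophage list summed to 442 CPM in ENPP1CKO members against 423 CPM in other fibroblasts, and to 818 against 731 CPM in the control library. In the ENPP1CKO library 1 member barcode held 30.6% of these counts, and without it the log2 ratio went from 0.06 to -0.45. In the control library it went from 0.16 to -0.04. With a selecting count of at least 3 the ENPP1CKO ratio was 1.13 [1.06, 1.21]. Members with 5 or more macrophage-list counts were 7.95% of the ENPP1CKO members against 3.74% of other fibroblasts, and 33.7% against 26.3% in the control library. The monocyte and neutrophil list stood at 310 against 140 CPM and 420 against 291 CPM, mostly from Plac8 (267 against 84.0 CPM and 309 against 165 CPM). Its top barcode held only 5.99% and 6.44% of the member counts. Without that barcode the log2 ratio went from 1.15 to 1.07 and from 0.53 to 0.45. Of ENPP1CKO members 12.6% had 5 or more counts of this list, against 2.85% of other fibroblasts. In the control library 17.8% and 8.89% did. The lymphoid list stood at 113 against 71.0 CPM and 21.5 against 29.5 CPM, the endothelial list at 117 against 134 CPM and 171 against 108 CPM, and the mural list at 109 against 104 CPM and 191 against 144 CPM. Without the top barcode the log2 ratio of the ENPP1CKO lymphoid list went from 0.67 to 0.07, that of the control endothelial list from 0.66 to 0.14, and those of the mural list from 0.06 to -0.36 and from 0.40 to -0.12. The dendritic list stood at 7.15 against 7.64 CPM and 2.08 against 4.53 CPM, the cardiomyocyte list at 37.9 against 48.0 CPM and 14.6 against 15.3 CPM, and the Schwann list at 25.7 against 29.1 CPM and 34 against 35.5 CPM. Of the 14 genes of the lymphoid list, 9 had no count in the ENPP1CKO members and 6 had none in the control members. Cd3e, Cd3g, Cd79a, Cd79b and Ms4a1 were at 0 in both. The list still held 158 and 31 member counts, and the B-lineage gene Igkc, given below, had counts in members of both libraries. Members without any C1q count numbered 99 and 73, and among fibroblasts so restricted the interferon-list ratios were 1.36 and 1.01 on the log2 scale. Free RNA and doublets were not tested as parts of these marker levels, and a doublet caller marked 2 and 3 of the members.

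Genes of fibroblast states went both ways within their lists. Matrix genes of the scar had a summed log2 ratio of 0.11 [0.09, 0.12] in ENPP1CKO and -0.03 [-0.04, -0.01] in the control library, with intervals above equality for 10 and 1 of its 27 genes and below it for 1 and 10, and contractile myofibroblast genes 0.06 [0.02, 0.09] and 0.03 [0.00, 0.06]. The Clec3b-type list had 0.13 and -0.14 and the resident list -0.17 and -0.09. The sign of the control ratio of the scar, myofibroblast, Clec3b-type and resident lists, and of the ENPP1CKO ratio of the myofibroblast and Clec3b-type lists, changed under at least 1 other setting. Cell-cycle genes stood at 370 against 250 CPM and 311 against 449 CPM, log2 ratios of 0.56 and -0.53 in opposite directions, with 23.4% and 22.1% of the member counts in 1 barcode, and that difference was not tested. In the Clec3b-type list Ly6a (Sca-1) was at 761 against 330 CPM and 451 against 260 CPM, and in the resident list Apod, a lipocalin, was at 71.5 against 28.8 CPM and 34 against 16.5 CPM. Postn, the matrix protein of activated fibroblasts, was level at 5277 against 4983 CPM and 4436 against 4418 CPM. In barcodes thinned to 3000 counts, members were 108 of 2042 fibroblasts (5.29%) with a Postn and no Clec3b count and 24 of 684 (3.51%) with both in the ENPP1CKO library, and 80 of 1246 (6.42%) and 18 of 328 (5.49%) in the control library. With a Clec3b and no Postn count they were 1 of 43 and 0 of 15, and with neither 2 of 39 (5.13%) and 8 of 94 (8.51%). The exact intervals of these classes overlapped within each library. Inflammatory genes outside the interferon lists (log2 -0.03 and 0.10), cell death genes (0.17 and 0.04) and dissociation-stress genes (0.04 and 0.04) had few genes past 2-fold: 1 of 22 inflammatory genes, Saa3, was lower in the ENPP1CKO members, and none was past 2-fold among the other lists in either library.

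Between genotypes, the interferon genes outside the rule were close in members. The ENPP1CKO members were at 14706 CPM and the control members at 12385 CPM, a log2 ratio of 0.25 [0.22, 0.28], and this came down to 0.11 in barcodes thinned to 3000 counts. None of the 72 genes with at least 20 counts over the members of both libraries was 2-fold apart in either direction, and 16 had an interval above 0 and 3 below it. Bst2 (log2 0.57 [0.46, 0.69]), Ifi27l2a (0.72 [0.64, 0.80]), Ifi203 (0.64 [0.45, 0.83]) and Irf7 (0.53 [0.29, 0.78]) were among those above, and Cxcl10 (-0.64 [-0.83, -0.44]), Helz2 (-0.92 [-1.78, -0.11]) and Ifitm2 (-0.11 [-0.21, -0.01]) were those below. In the other fibroblasts the list had a log2 ratio of -0.07 [-0.08, -0.05]. There 1 of 75 genes tested was at least 2-fold higher and 5 at least 2-fold lower, with 12 intervals above 0 and 19 below it. The levels of the 5 selecting genes in members are bound up with the selecting count and with depth, so no ratio between genotypes is given for them. The GTPases had 0.39 [0.26, 0.51] in members and -0.14 [-0.24, -0.03] in the other fibroblasts.

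Over all fibroblasts the order was the other way. The interferon list stood at 6638 CPM in the ENPP1CKO library and 6952 CPM in the control library, and the 5 selecting genes at 327 and 406 CPM. With 1 library per genotype none of these differences was tested.

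**Figure D5:**
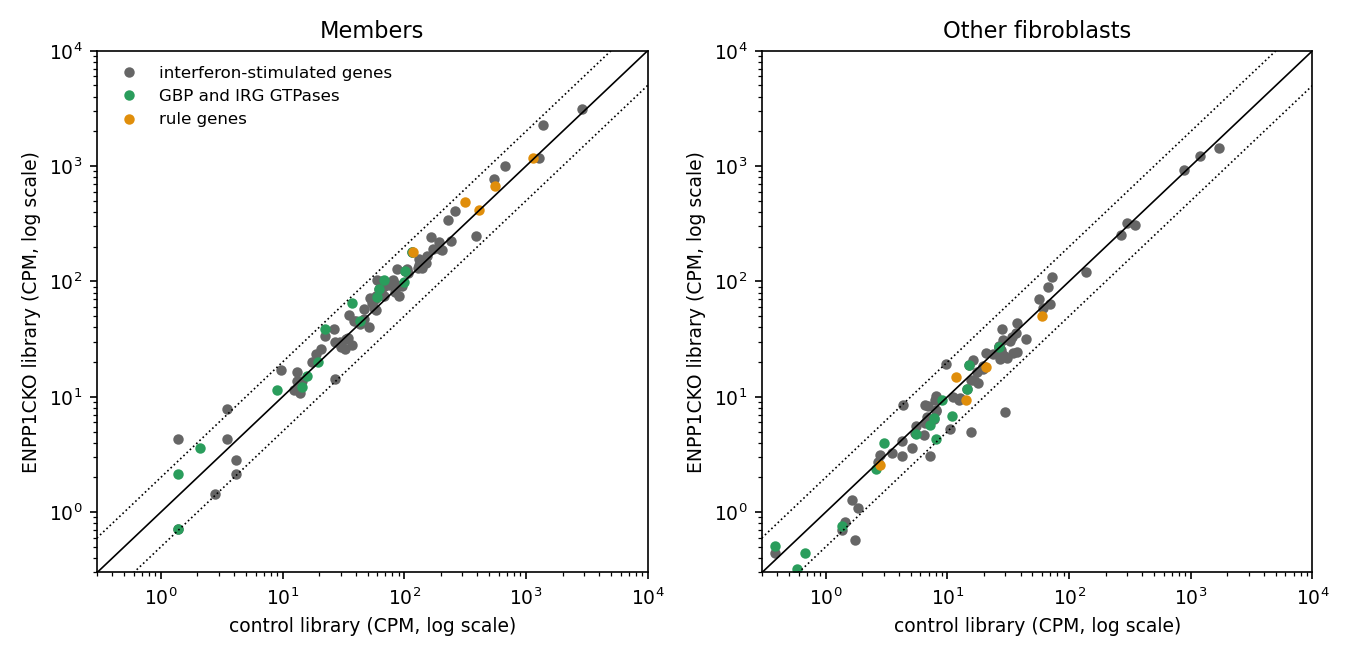
Level of each gene in the ENPP1CKO library (vertical log axis, CPM) against the control library (horizontal log axis, CPM), in members (left) and in the other fibroblasts (right), for interferon-stimulated genes (grey), interferon-induced GTPases (green) and the 5 selecting genes (orange), the last shown as levels only. The solid line marks equal levels and the dotted lines 2-fold, and genes under 0.3 CPM in either library are not drawn. None of the 72 interferon-stimulated genes with at least 20 member counts was called 2-fold apart in members. In the other fibroblasts 1 of 75 was called higher and 5 lower.

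Of 8545 genes tested, 192 (2.25%) were at least 2-fold higher in the ENPP1CKO members and 260 (3.04%) at least 2-fold lower. In the other fibroblasts 265 of 12931 (2.05%) were higher and 497 (3.84%) lower. Gpt2, a mitochondrial alanine aminotransferase, was at 78.6 against 4.85 CPM (log2 4.02), Thbs4, a matricellular thrombospondin, at 351 against 55.5 CPM (2.66), and Cilp, a matrix protein, at 838 against 165 CPM (2.34). Abca8a, Per3 of the circadian clock, Tsc22d3, a glucocorticoid target, and Igfbp6 had log2 ratios of 2.40, 2.19, 2.19 and 2.08. In the other fibroblasts the ratios of these 7 genes were 4.70, 1.40, 2.20, 1.58, 1.33, 2.04 and 1.2. Igkc, an immunoglobulin chain of B-lineage cells, was at 109 against 13.2 CPM, with 34.9% of the ENPP1CKO counts in 1 barcode. Tmem100 (log2 3.04) and Msx1 (2.45) completed the 10 highest among genes with at least 50 counts over the members of both libraries.

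The 10 lowest were also taken among genes with at least 50 counts. Saa3, serum amyloid A, was at 8.58 against 1003 CPM (log2 -6.87), Clu, clusterin, at 15.7 against 319 CPM (-4.34) and Actg2, a smooth muscle actin, at 2.14 against 51.3 CPM (-4.58). Slpi, a protease inhibitor, was at 5.0 against 453 CPM, but 1 control barcode held 89.9% of the control members' counts, and without the top barcode of each library its log2 ratio went from -6.50 to -4.02. For Wfdc18 it went from -4.96 to -4.65, for Crabp2 from -2.92 to -1.55, for H2-Ab1 from -2.79 to -1.90 and for Cd74 from -2.30 to -1.52. Prrx2 (-2.75) and Serpinb6b (-2.64) completed the list. H2-Ab1 and Cd74 are MHC class II genes of the list of interferon gamma targets, in which 5 of 12 genes tested were at least 2-fold lower in the ENPP1CKO members. Macrophage markers moved with them, at 442 CPM in ENPP1CKO members and 818 CPM in control members (log2 -0.89 [-1.03, -0.75], or -1.20 without the top barcodes), and mural markers with the contractile genes (log2 -0.81 [-1.11, -0.52]). Their part in these results was not tested. In the other fibroblasts Saa3, Clu and Actg2 had log2 ratios of -4.57, -3.51 and -2.94, and Wfdc18 -0.09. The contractile list as a whole was lower in ENPP1CKO members (log2 -0.64 [-0.69, -0.60]) and in the other fibroblasts (-0.67), and the Clec3b-type list higher in both (0.96 and 0.68).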

How the data were processed

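Nonmyocytes of the heart at 7 days after myocardial infarction were profiled by single-cell RNA-Seq, with 1 library from ENPP1CKO and 1 from control mice. For each library the authors deposited a table of whole-number counts per gene and barcode. The submitters' processing notes name Cell Ranger and mm10, and also STAR 2.5.3a and rn6 with no role stated. The Cell Ranger version and how barcodes were called are not given in the sources used here. The ENPP1CKO library held 7460 barcodes with 28039559 counts (median 3395.5 per barcode) and the control library 5347 barcodes with 22746607 counts (median 3703). Each table had 31053 gene IDs, of which 30934 had a symbol. No column of the tables was left unused. Bulk tables of cultured cells were not used here.

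Counts were summed over the barcodes of a group and given as CPM, with exact 95% Poisson intervals for levels, exact binomial intervals for shares, and exact conditional intervals for ratios. A gene was measured with at least 20 counts over the groups compared. It was called at a ratio of at least 2-fold with an interval that excluded equality. Thinning drew 3000 counts (also 1500 and 6000) from each barcode, and the fibroblast gate was then applied again. C1q-high barcodes had C1q genes at 0.3% or more and matrix genes under 0.5%, and endothelial-gated barcodes were under both limits with endothelial genes at 0.3% or more. Doublets were predicted with Scrublet and kept (151 barcodes, 2.02%, and 69, 1.29%). The members and the gene lists, typed from general knowledge, were chosen with earlier results of these data known. Named genes were the selecting genes, Enpp1, members of the lists by role and by size of ratio, the 15 highest and lowest ratios shared by both libraries with at least 50 member counts, and the 10 highest and lowest between genotypes in members with the same count limit. A gene that this rule names is not reported here.

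Alternatives were a summed count of at least 3 or 10, matrix genes at 2% or more, no C1q count, removal of predicted doublets and of barcodes over 20% mitochondrial counts or under 200 genes, barcodes of at least 5000 counts, thinning, median-ratio scaling and no gene filter. Leaving out barcodes shared by both libraries, or the member barcode with the most counts, was chosen after seeing the data. The code was tested on simulated data. Python 3.11.15, numpy 2.4.6, scipy 1.17.1, scanpy 1.11.5 and matplotlib 3.10.9 were used.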

Additional observations from a re-analysis of the deposited data

Results flagged for a closer look

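For 4 gene lists the members stood above the other fibroblasts in one library and below them in the other, with intervals that excluded equality in each. The difference between the libraries was not tested, since each genotype had 1 library. MHC class II genes had a summed log2 ratio of -0.44 in ENPP1CKO and 1.12 in the control library, and of -0.50 and 0.32 without the member barcode that held the most counts. Cell-cycle genes had 0.56 and -0.53, and 0.20 and -0.88 without that barcode. Of 25 cell-cycle genes, 8 were at least 2-fold higher in the ENPP1CKO members, and 1 was higher and 9 lower in the control members. Top2a, the topoisomerase of dividing cells, had log2 ratios of 1.72 and -1.30 and the mitotic kinase Cdk1 0.74 and -0.82. Matrix genes of the scar had 0.11 and -0.028, or 0.10 and -0.03 without the top barcode. The Clec3b-type list had 0.13 and -0.14, or 0.10 and -0.17. S100a8, a neutrophil protein, also went in opposite directions (3.30 and -0.75). In the ENPP1CKO library 1 barcode held 13 of its 14 member counts, and without the top barcode its ratios were -0.50 and -1.06.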

How the results depend on the processing

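No paired analysis was possible because each genotype had 1 library and no result came from a test, and for the same reason no replicate could be left out. Of 260 log2 ratios under other settings, 210 had the sign of the reported one. The interferon list remained higher in members of both libraries under every setting run. Its ratio, reported as 1.31 in ENPP1CKO and 1.00 in the control library, was 1.12 and 0.86 with a summed count of at least 3, 1.57 and 1.24 with at least 10, 1.28 and 1.11 with matrix genes at 2% or more, 1.28 and 0.96 in barcodes of at least 5000 counts, and 1.54 and 1.31 after thinning to 3000 counts. Without any C1q count it was 1.36 in the ENPP1CKO library. The shares moved with the count threshold, the gate and depth. Members were 10.2% and 16.6% of fibroblasts with at least 3 counts, 3.14% and 5.07% with at least 10, 10.4% and 12.8% in barcodes of at least 5000 counts, and 4.81% and 6.30% after thinning. Without any C1q count they were 99 of 2057 ENPP1CKO fibroblasts (4.81%) and 73 of 774 control fibroblasts. The fibroblast gate held 51.6% and 38.4% of barcodes, against 44.2% and 29.4% with matrix genes at 2% or more, 27.6% and 14.5% without any C1q count, 73.9% and 66.7% in barcodes of at least 5000 counts, and 64.1% and 50.1% after thinning.

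Between genotypes, the interferon list in members (0.25) had 0.20 with at least 3 counts, 0.15 with matrix genes at 2% or more and 0.11 after thinning. In the other fibroblasts (-0.07) it had -0.027 with matrix genes at 2% or more, -0.11 without any C1q count and -0.11 after thinning. For Enpp1 in members (-1.67) the ratio was -0.76 without any C1q count and -1.06 after thinning. Genes at least 2-fold lower in the control members (168) numbered 102 with at least 3 counts and 109 without any C1q count. Genes at least 2-fold higher in ENPP1CKO than in control members (192) numbered 124 without any C1q count and 99 after thinning, and those lower (260) numbered 106 and 82, with fewer barcodes in both settings.

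These lists changed sign, and the cause was not tested. In the ENPP1CKO library the myofibroblast list (0.06) had -0.12 in barcodes of at least 5000 counts and -0.050 after thinning, the Clec3b-type list -0.0063 with at least 3 counts and the lymphoid list -0.036 after thinning. The macrophage list there, reported as 0.06 with an interval that includes 0, had 1.13 with at least 3 counts, 0.35 with at least 10, -0.17 with matrix genes at 2% or more, -0.30 without any C1q count, -0.33 without predicted doublets and poor barcodes, -0.35 after thinning and -0.45 without the top barcode. In the control library the myofibroblast list (0.03) had -0.051 with at least 3 counts, -0.17 with matrix genes at 2% or more, -0.12 without any C1q count, -0.043 in barcodes of at least 5000 counts, -0.28 after thinning and -0.042 without the top barcode. There the scar list had 0.016 and the resident list 0.022 with matrix genes at 2% or more, the resident list 0.087 and the monocyte and neutrophil list -0.35 without any C1q count, and the Clec3b-type list 0.25 after thinning. The control macrophage list had -0.29 with matrix genes at 2% or more, -0.21 without any C1q count, -0.26 after thinning and -0.042 without the top barcode. The control endothelial list had -0.18 with matrix genes at 2% or more and -0.056 after thinning. The control mural list had -0.23 with at least 10 counts, -0.33 with matrix genes at 2% or more, -0.65 after thinning and -0.12 without the top barcode. Removing predicted doublets and poor barcodes, or leaving out barcodes shared by both libraries, moved no share or interferon-list ratio beyond its counting interval. Median-ratio scaling, run for the counts of genes and for the interferon list between genotypes in members (0.24), and no gene filter, run for the counts of genes alone, kept each count within 1.5 times the reported one.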
